A study of Mus musculus with 2 samples.

Results

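A group of 10 immediate early genes was examined in single-cell RNA counts from the pressure-loaded mouse heart. They were the AP-1 genes Fos, Fosb, Jun, Junb and Jund, the zinc finger gene Egr1, the stress gene Atf3, and the nuclear receptor genes Nr4a1, Nr4a2 and Nr4a3. They were taken by symbol, although earlier results of these data were known when they were chosen. Each of the 10 was present once among the 32589 gene identifiers of the count files. The series holds 2 libraries, 1 labelled wild-type and 1 labelled p53 knockout, and each was made from the hypertrophied left ventricles of 3 mice mixed together. All mice had undergone transverse aortic constriction (TAC), an operation that constricts the aortic arch and raises the pressure the heart pumps against, and tissue was taken 6 weeks later. The labels give no age and name neither the strain nor the deleted part of the p53 gene, and no mice without TAC are in the series. Releasing cells from tissue can induce the same genes, and neither undissociated tissue nor the steps used are given in the sources used here, so load and dissociation cannot be told apart. With 1 library per group, differences between animals could not be measured and no test between groups was possible. All intervals in parentheses are exact, at 95%, and cover counting error only.

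Immediate early genes are transcribed within minutes of a stimulus because their factors are already bound or only need phosphorylation. Serum response factor and CREB, acting downstream of MAP kinases, calcium and cAMP, are their best known activators. Fos and Jun proteins pair to form AP-1, which binds DNA as a dimer, and Jund is the Jun family member with the steadiest level in resting tissue. Egr1 drives growth factor and matrix genes, Atf3 is induced by cell stress and often represses its targets, and the NR4A genes encode orphan nuclear receptors that act without a known natural ligand and are induced by calcium and cAMP. In the heart, Fos, Jun and Egr1 are textbook early markers of pressure load, and the same genes are the textbook signature of enzymatic dissociation.

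Promoter sequences are shown because all 3 NR4A genes were lower in endocardial-like cells of the library labelled p53 knockout, where Junb and Jund were higher. RefSeq promoters (GRCm38.p6) were read for 9 of the 10 genes. The Egr1 promoter was not searched, so no motif result here covers it. The 250 bases before each start were searched on both strands for TGACG, the core of the cAMP response element that CREB binds. At least 1 copy of the core was present in 7 of the 9 promoters and in 17.8% of all 32851 promoters of the same length. Nr4a1, Nr4a2 and Nr4a3 each held 4 copies, Fos 2, and Fosb, Junb and Atf3 1 each, while Jun and Jund held none. The share of all promoters with 4 copies was not counted. For Nr4a1 and Atf3 the RefSeq start used lies inside the GENCODE gene, downstream of the GENCODE start, so their counts belong to internal starts. Whether the number of copies bears on the levels in either library was not tested. Stretches that lie in no annotated exon are printed 5′ to 3′ on the gene's strand, with the core in capitals (TGACG, or CGTCA where it lies on the other strand). The stretches are Nr4a1 at chr15:101266596-101266845, plus strand; Nr4a2 at chr2:57124004-57124253, minus strand; Nr4a3 at chr4:48045055-48045152, plus strand, shortened to 98 bases that hold 3 of its 4 copies; Fos at chr12:85473640-85473889, plus strand; Junb at chr8:84978749-84978998, minus strand; and Jund at chr8:70697489-70697738, plus strand, where the RefSeq start lies upstream of the GENCODE gene start.
Nr4a1: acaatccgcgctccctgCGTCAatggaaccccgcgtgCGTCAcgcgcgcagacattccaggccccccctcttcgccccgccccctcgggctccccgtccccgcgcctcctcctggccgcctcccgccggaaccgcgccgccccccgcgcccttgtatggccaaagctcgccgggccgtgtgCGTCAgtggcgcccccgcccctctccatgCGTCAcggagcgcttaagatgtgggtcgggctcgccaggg
Nr4a2: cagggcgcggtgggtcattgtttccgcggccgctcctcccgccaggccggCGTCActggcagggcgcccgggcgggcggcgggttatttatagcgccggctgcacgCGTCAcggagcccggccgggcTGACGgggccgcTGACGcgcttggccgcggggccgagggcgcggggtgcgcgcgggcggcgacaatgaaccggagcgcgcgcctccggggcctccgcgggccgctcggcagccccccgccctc
Nr4a3: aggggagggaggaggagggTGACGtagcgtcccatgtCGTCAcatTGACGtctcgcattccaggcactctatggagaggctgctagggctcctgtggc
Fos: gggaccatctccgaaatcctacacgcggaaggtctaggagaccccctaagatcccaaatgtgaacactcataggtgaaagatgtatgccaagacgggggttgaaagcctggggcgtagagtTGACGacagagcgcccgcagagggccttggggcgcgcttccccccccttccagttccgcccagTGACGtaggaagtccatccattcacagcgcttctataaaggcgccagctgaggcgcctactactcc
Junb: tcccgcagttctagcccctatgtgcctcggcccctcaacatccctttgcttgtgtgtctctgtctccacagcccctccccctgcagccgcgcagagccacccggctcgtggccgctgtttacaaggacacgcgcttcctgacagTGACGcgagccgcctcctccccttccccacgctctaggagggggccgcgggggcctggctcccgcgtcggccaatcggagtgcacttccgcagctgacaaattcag
Jund: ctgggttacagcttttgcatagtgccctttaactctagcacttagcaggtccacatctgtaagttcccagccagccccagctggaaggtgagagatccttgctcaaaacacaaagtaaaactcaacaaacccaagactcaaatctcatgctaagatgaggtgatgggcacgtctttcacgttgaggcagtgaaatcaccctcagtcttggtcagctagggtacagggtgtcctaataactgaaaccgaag
The TATA box letters TATAAA were found in Fos and Nr4a2 and in 12.4% of all promoters. Longer motifs were in none of the 9 windows: the full cAMP response element TGACGTCA (1.55% of all promoters), the AP-1 site TGACTCA (4.46%), the EGR site GCGTGGGCG (0.536%) and the NR4A element AAAGGTCA (1.34%). The CArG box of serum response factor was also absent from these windows and present in 1.47% of all. TGACG lies inside TGACGTCA, so those counts overlap.

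The genes lie at the following mm10 positions in GENCODE vM21. Fos is on chromosome 12, 85473890 to 85477273, plus strand; Fosb on chromosome 7, 19302696 to 19310051, minus strand; Jun on chromosome 4, 95049034 to 95052222, minus strand. Junb is on chromosome 8, 84974484 to 84978718, minus strand; Jund on chromosome 8, 70698949 to 70700616, plus strand; Egr1 on chromosome 18, 34859823 to 34864984, plus strand. Atf3 is on chromosome 1, 191170296 to 191218039, minus strand; Nr4a1 on chromosome 15, 101254269 to 101274795, plus strand; Nr4a2 on chromosome 2, 57106830 to 57124003, minus strand; and Nr4a3 on chromosome 4, 48045153 to 48086447, plus strand. Jun overlaps the antisense gene Junos (479 and 443 UMIs in the 2 libraries), Junb overlaps Prdx2 (984 and 1082), and Jund overlaps Gm11175 (10 and 10). The sources used here do not say whether counting used strand, so the counts of Jun, Junb and Jund are uncertain to that extent.

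After filtering, 14764 cells labelled wild-type and 9298 labelled p53 knockout remained, with medians of 936 and 1567 UMIs per cell. Trp53, the gene that encodes p53 (chromosome 11, 69580359 to 69591873, plus strand), had 38.7 and 54.8 CPM over all kept cells, a log2 ratio of 0.50 (0.36 to 0.64), and 27.4 and 27.3 CPM in cardiomyocyte-like cells. CPM are UMIs per 1000000 nuclear-encoded UMIs. Values are given first for the library labelled wild-type, which is the denominator of every log2 ratio. The targeted RNA was therefore not reduced where the label says knockout, and whether the counted 3′ end lies outside the deleted part is not given. Sex-linked transcripts were unequal too: Xist had 2.37 and 929 CPM and 4 Y-linked genes together had 541 and 7.34 CPM, so sex, genotype and library cannot be told apart. The labels give the cell type as cardiomyocytes, but cardiomyocyte-like cells made up 32.4% and 9.22% of kept cells, and 10 classes had at least 50 cells in each library. Classes were built without the 10 genes, so none of them defines a class. Several classes were held by different clusters in the libraries. Cardiomyocyte-like cells lay mostly in clusters 1, 7 and 10 of the first library, and clusters 13 and 7 of the second. Fibroblast-like cells lay in cluster 2 against cluster 4, endocardial-like cells in cluster 3 against cluster 6, and vascular endothelial-like cells in cluster 0 against clusters 0 and 9. Cardiomyocyte marker RNA outside cardiomyocyte-like cells, a measure of free RNA, took 0.886% to 1.40% of UMIs in the other classes of the first library and 0.188% to 0.292% in those of the second, beside 6.16% and 6.14% in cardiomyocyte-like cells.

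**Figure D1:**
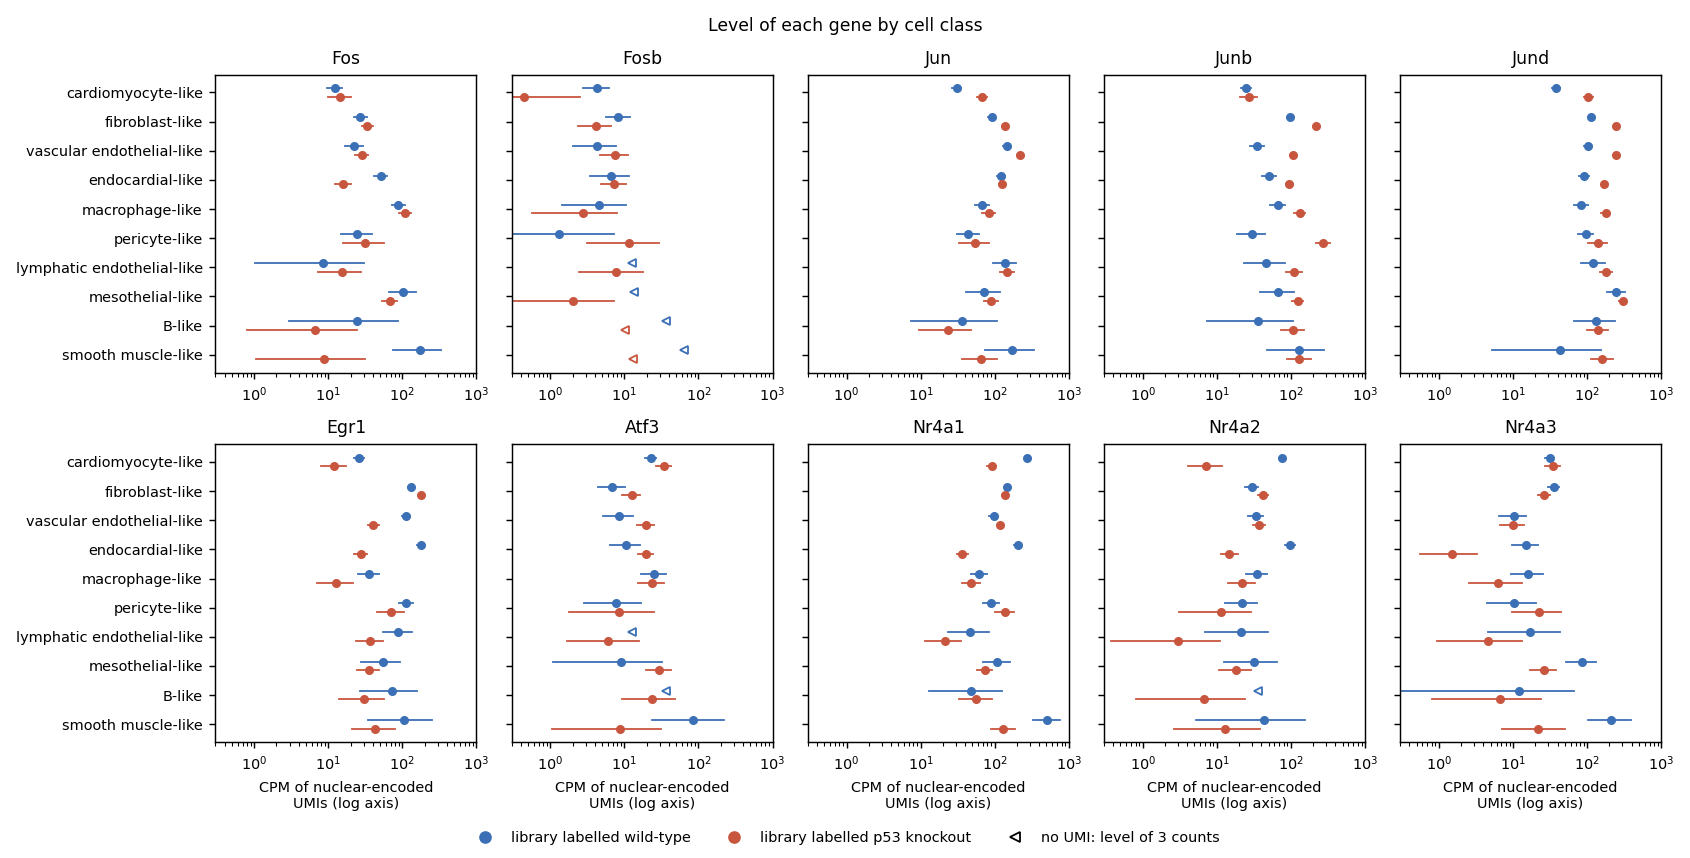
Level of each gene in CPM of nuclear-encoded UMIs (log axis) in the 10 classes with at least 50 cells per library, with exact 95% Poisson intervals; open triangles mark a library with no UMI at the level of 3 counts. Egr1, Junb and Jund stood lowest in cardiomyocyte-like cells in both libraries. Their intervals overlapped those of some other classes, for Egr1 macrophage-like cells among them, except Junb in the library labelled p53 knockout.

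The level of each gene differed between classes. In the library labelled wild-type, cardiomyocyte-like cells had the lowest Jun, Junb, Jund and Egr1 of the 10 classes. Intervals of some other classes overlapped theirs, among them macrophage-like cells for Egr1. In cardiomyocyte-like cells Jun had 30.7 CPM (26.4 to 35.4), Junb 24.9 CPM (21.1 to 29.2), Jund 38.0 CPM (33.3 to 43.2) and Egr1 25.9 CPM (22.0 to 30.3). In the library labelled p53 knockout Junb was lowest there too, at 26.9 CPM (20.5 to 34.6), and no interval of another class overlapped it. Among classes with at least 20 UMIs of Jun in each library, vascular endothelial-like cells had the most, 145 CPM (130.2 to 161) and 219 CPM (203 to 235). Jund was highest in mesothelial-like cells, with 248 CPM (187 to 322) and 304 CPM (271 to 341). Among the 6 classes with most cells, Fos stood highest in macrophage-like cells, with 88.6 CPM (72.0 to 108) and 110.0 CPM (91.3 to 131), against 12.4 CPM (9.76 to 15.5) and 14.3 CPM (9.80 to 20.2) in cardiomyocyte-like cells.

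The NR4A genes had another order. Nr4a1 was highest in smooth muscle-like cells of the library labelled wild-type, at 514 CPM (329 to 764) from only 24 UMIs in 50 cells, followed by cardiomyocyte-like, endocardial-like and fibroblast-like cells. Those 4 levels stood apart, since no interval overlapped the next. In the library labelled p53 knockout the 4 highest classes for Nr4a1 were fibroblast-like, pericyte-like, smooth muscle-like and vascular endothelial-like cells, from 137 down to 118 CPM, and each of their intervals overlapped the next. Nr4a3 had its highest value in that first library in smooth muscle-like cells, at 214 CPM (103 to 393), but 7 of its 10 UMIs there lay in 1 cell. Among classes with at least 20 UMIs of Nr4a3 over both libraries, mesothelial-like cells stood highest, at 85.6 CPM (51.5 to 134). In the other library the highest Nr4a3 level was in cardiomyocyte-like cells, at 34.5 CPM (27.2 to 43.1), overlapping that of mesothelial-like cells.

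Taking all kept cells, the Jun family was higher and the NR4A family lower in the second library, the one labelled p53 knockout. Junb had 49.4 CPM (46.0 to 52.9) and 131 CPM (126 to 137), a log2 ratio of 1.41 (1.30 to 1.53). Jund had 79.8 CPM (75.5 to 84.2) and 198 CPM (191 to 204), a log2 ratio of 1.31 (1.22 to 1.40), and Jun 76.3 CPM (72.1 to 80.6) and 128 CPM (122 to 133), a log2 ratio of 0.74 (0.64 to 0.84). The level intervals of the libraries did not overlap for any of these 3 genes. Nr4a1 had 185 CPM (179 to 192) and 91.5 CPM (87.2 to 95.9), a log2 ratio of -1.02 (-1.11 to -0.93). Nr4a2 had 54.9 CPM (51.4 to 58.6) and 24.4 CPM (22.2 to 26.8), a log2 ratio of -1.17 (-1.34 to -1.01), and Nr4a3 26.2 CPM (23.8 to 28.8) and 15.2 CPM (13.5 to 17.1), a log2 ratio of -0.78 (-1.01 to -0.57). All 3 receptors were thus lower. Of the others, Egr1 was lower (-0.44 (-0.55 to -0.33)), Atf3 (0.43 (0.20 to 0.67)) and Fos (0.23 (0.06 to 0.41)) were higher, and the interval of Fosb held 0 (-0.11 (-0.55 to 0.34)). By a 2-fold rule, 2 of the 10 were higher, beside 11.9% of all 18683 genes with at least 20 UMIs, and 2 were lower, beside 10.9%. The all-cell values also carry the difference in cell mix, so the classes are given next.

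**Figure D2:**
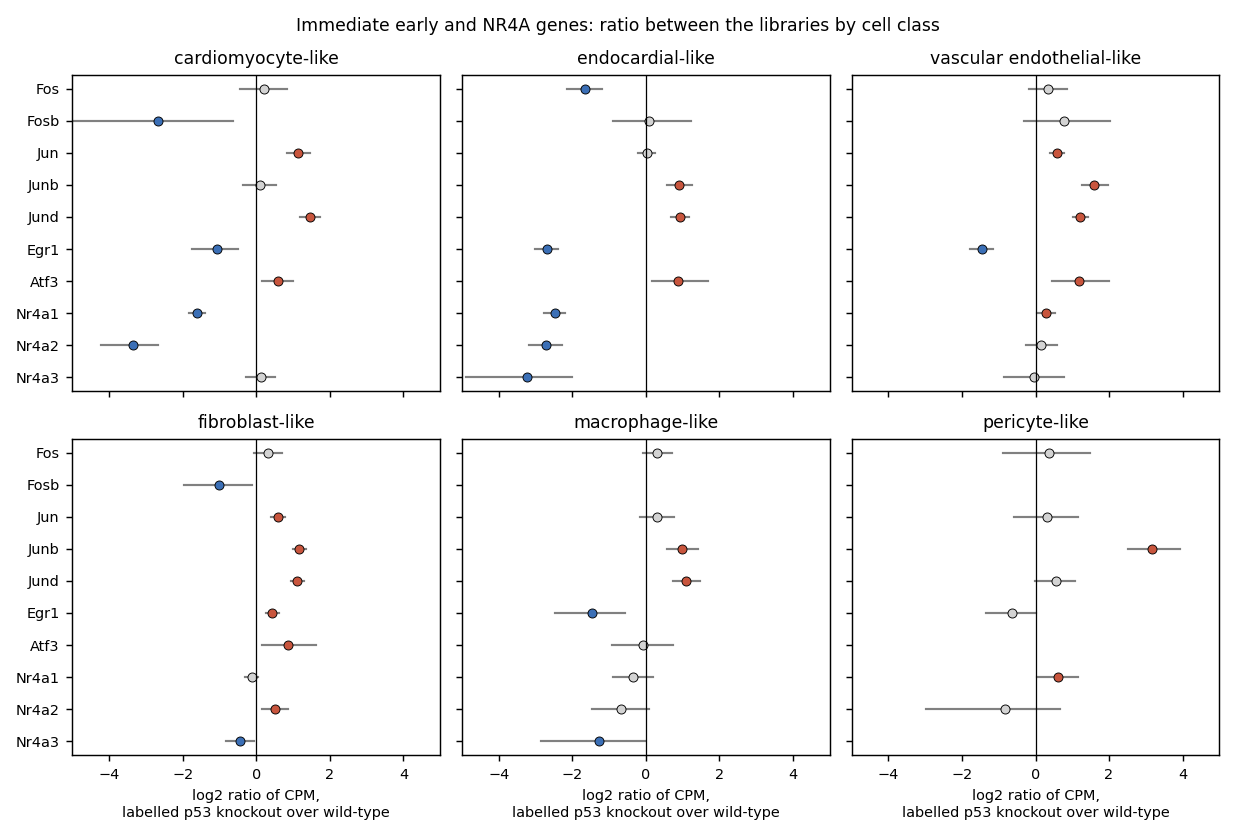
Log2 ratio of CPM, second library (labelled p53 knockout) over first (labelled wild-type), with exact 95% intervals, for genes with at least 20 UMIs in the class; intervals that reach past -5 or 5 end at the frame. Red points have intervals above 0, blue points below 0 and grey points hold 0. Jund lies above 0 and Egr1 below 0 in most panels, and the NR4A points lie far to the left in endocardial-like cells.

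Members of the Jun family were higher in most classes, and the member with the higher level was not the same in each. In cardiomyocyte-like cells Jun had 30.7 CPM (26.4 to 35.4) and 67.6 CPM (57.2 to 79.3), a log2 ratio of 1.14 (0.82 to 1.46), and Jund had 38.0 CPM (33.3 to 43.2) and 105 CPM (91.7 to 119), a log2 ratio of 1.46 (1.2 to 1.73). Junb, the member that restrains Jun in many settings, had 24.9 CPM (21.1 to 29.2) and 26.9 CPM (20.5 to 34.6) in the same cells, and the interval of its ratio held 0 (0.11 (-0.35 to 0.55)). In cells thinned to 500 UMIs the Junb ratio in this class was 1.11, and without the mitochondria-rich cluster 7 it was -0.15, so no direction is read for Junb there.

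Outside cardiomyocyte-like cells the Junb level was higher in several classes. In fibroblast-like cells it had 98.0 CPM (87.8 to 109) and 220.2 CPM (206 to 235), a log2 ratio of 1.17 (0.99 to 1.35). In vascular endothelial-like cells it had 35.2 CPM (28.1 to 43.7) and 107 CPM (96.0 to 119), a log2 ratio of 1.59 (1.25 to 1.97). In pericyte-like cells, the contractile cells that wrap capillaries, 23 and 96 UMIs gave 29.9 CPM (18.9 to 44.8) and 273 CPM (222 to 334), a log2 ratio of 3.17 (2.53 to 3.92), the highest of Junb in any class. The Junb interval lay above 0 in 7 of 10 classes and below 0 in none. Jund lay above 0 in 5 of 10 classes and below 0 in none, with log2 ratios between 0.03 in B-like and 1.61 in smooth muscle-like cells. Jund was higher in vascular endothelial-like (104 CPM (91.4 to 118) and 243 CPM (226 to 260.3)), fibroblast-like (114 CPM (103 to 126) and 249 CPM (234 to 264)), endocardial-like (90.7 CPM (77.4 to 106) and 171 CPM (159 to 185)) and macrophage-like cells (83.2 CPM (67.2 to 102) and 179 CPM (155 to 206)). Jun lay above 0 in 3 of 9 classes measured, by 0.59 (0.39 to 0.79) in fibroblast-like and 0.59 (0.40 to 0.78) in vascular endothelial-like cells besides cardiomyocyte-like cells, and its interval held 0 in endocardial-like cells (0.02 (-0.21 to 0.26)). Clusters did not all show this. In fibroblast-like cluster 4, which held 1782 of the 1978 cells of that class in the second library, Jun was lower (-0.59 (-1.08 to -0.02)), and in cluster 2 it was higher (0.66 (0.08 to 1.16)). In the cardiomyocyte-like clusters 1, 7 and 13 the Jun interval held 0, at 1.06 (-0.38 to 2.06), 0.50 (-0.18 to 1.18) and 0.82 (-0.55 to 3.34).

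Fos and Fosb did not show the higher levels of the Jun family. Fos, the usual partner of Jun, had 27.2 CPM (22.0 to 33.3) and 33.8 CPM (28.4 to 39.8) in fibroblast-like and 22.5 CPM (16.9 to 29.4) and 28.4 CPM (22.9 to 34.9) in vascular endothelial-like cells, and both ratio intervals held 0. Of the 7 classes with at least 20 UMIs, Fos differed beyond counting error in 1. In endocardial-like cells it had 50.9 CPM (41.0 to 62.4) and 16.0 CPM (12.3 to 20.5), a log2 ratio of -1.66 (-2.15 to -1.19). Fosb was rare, with 84 and 88 UMIs in all. In cardiomyocyte-like cells it had 26 UMIs against 1, a log2 ratio of -2.69 (-8.60 to -0.64). Its lower level in fibroblast-like cells (-1.0 (-1.97 to -0.11)) rested on few cells: the cell with the most Fosb held 12 of the 29 UMIs in the library labelled wild-type, and without the 1% of cells with most UMIs of the 10 genes the log2 ratio was 0.25.

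Egr1 was lower in most classes and higher in fibroblast-like cells taken as a class. In endocardial-like cells, which line the heart chambers, Egr1 had 178 CPM (159 to 198) and 27.3 CPM (22.4 to 32.9), a log2 ratio of -2.70 (-3.03 to -2.38). This class went from the highest Egr1 level of 10 classes to the eighth. In vascular endothelial-like cells Egr1 had 113 CPM (99.4 to 127) and 40.8 CPM (34.1 to 48.4), a log2 ratio of -1.46 (-1.78 to -1.16), and in macrophage-like cells 35.8 CPM (25.6 to 48.7) and 12.7 CPM (6.96 to 21.4), a log2 ratio of -1.46 (-2.48 to -0.58). Cardiomyocyte-like cells had 25.9 CPM (22.0 to 30.3) and 12.1 CPM (7.96 to 17.6) of Egr1, a log2 ratio of -1.08 (-1.75 to -0.51). Of the clusters of that class, the Egr1 interval lay below 0 only in the mitochondria-rich cluster 7. In cells thinned to 500 UMIs its detected shares there, 1.32% (1.01% to 1.68%) and 0.933% (0.404% to 1.83%) over the class, overlapped. In fibroblast-like cells the order turned, with 130.3 CPM (119 to 143) and 176 CPM (164 to 189.6) and a log2 ratio of 0.44 (0.27 to 0.61). Within the clusters of that class the interval held 0, at 0.16 (-0.40 to 0.64) in cluster 2 and -0.39 (-0.85 to 0.15) in cluster 4. Over 8 classes measured, 5 intervals lay below 0 and 1 above. Atf3 was higher by 0.58 (0.15 to 0.99) in cardiomyocyte-like cells (22.8 CPM (19.2 to 26.9) and 34.0 CPM (26.8 to 42.6)) and by 1.17 (0.45 to 2.0) in vascular endothelial-like cells (8.49 CPM (5.19 to 13.1) and 19.5 CPM (15 to 24.9)). Its interval lay above 0 in 4 of 6 classes measured and below 0 in none.

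Nr4a1 and Nr4a2 were lower in cardiomyocyte-like cells and all 3 NR4A genes in endocardial-like cells, while in fibroblast-like and vascular endothelial-like cells taken as classes Nr4a1 was not lower beyond counting error. In cardiomyocyte-like cells Nr4a1 had 277 CPM (264 to 290.0) and 90.9 CPM (78.8 to 104), a log2 ratio of -1.60 (-1.82 to -1.39). Nr4a2 had 461 UMIs in 4782 cells against 16 in 857 cells, or 75.2 CPM (68.5 to 82.3) and 7.16 CPM (4.09 to 11.6), a log2 ratio of -3.35 (-4.21 to -2.68). Nr4a3 stood at 31.5 CPM (27.2 to 36.2) and 34.5 CPM (27.2 to 43.1) in the same cells and its ratio interval held 0 (0.14 (-0.27 to 0.52)). Within this class the intervals of Nr4a1 and Nr4a2 were thus apart between the libraries, and those of Nr4a3 overlapped.

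In endocardial-like cells all 3 were lower. Nr4a1 had 205 CPM (185 to 227) and 36.6 CPM (30.9 to 43.0), a log2 ratio of -2.49 (-2.78 to -2.21). Nr4a2 had 97.9 CPM (84.0 to 113) and 14.8 CPM (11.2 to 19.1), a log2 ratio of -2.72 (-3.18 to -2.30), and Nr4a3, from 27 and 6 UMIs, 14.9 CPM (9.84 to 21.7) and 1.5 CPM (0.551 to 3.27), a log2 ratio of -3.22 (-4.88 to -2.01). In fibroblast-like cells, the matrix-producing cells, Nr4a1 had 149 CPM (136 to 162) and 137 CPM (126 to 149), with a ratio interval that held 0 (-0.12 (-0.30 to 0.05)). In cluster 2 of this class its log2 ratio was -0.23 (-0.83 to 0.28) and in cluster 4 -1.16 (-1.57 to -0.70). Nr4a2 had 29.8 CPM (24.3 to 36.1) and 42.2 CPM (36.2 to 48.9). The higher Nr4a2 there (0.50 (0.14 to 0.87)) did not keep its sign in cells thinned to 500 UMIs (-0.05). Vascular endothelial-like cells had 97.2 CPM (85.1 to 111) and 118 CPM (107 to 131) of Nr4a1, a log2 ratio of 0.28 (0.04 to 0.53), and pericyte-like cells 89.6 CPM (69.7 to 113) and 137 CPM (100.8 to 181), a log2 ratio of 0.62 (0.05 to 1.16). Whether the ratio differs between classes was not tested.

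Free RNA bears on Nr4a1 outside cardiomyocyte-like cells, because it was abundant in them in the library labelled wild-type. If Nr4a1 RNA were carried in the same ratio as cardiomyocyte marker RNA, it would add 39.7 to 62.6 CPM to the other classes of that library and 2.78 to 4.32 CPM to those of the other. The Nr4a1 interval lay above that amount in 7 of 9 classes of the library labelled wild-type, the exceptions being lymphatic endothelial-like and B-like cells, and in 9 of 9 of the other. In endocardial-like cells the amounts were 40.0 and 3.08 CPM, beside measured levels of 205 and 36.6 CPM. In fibroblast-like cells they were 39.7 and 2.85 CPM, and the gap between these amounts was larger than that between the measured levels. The part of free RNA in these differences was not tested. The carried amount covers free RNA of cardiomyocyte-like cells only, and that of other classes was not measured. In the first library Jun, Junb and Egr1 were lowest in cardiomyocyte-like cells, so their carried amounts were small and nothing is read from their counts. For Jun, Junb and Egr1 the interval lay above the carried amount in 9 of 9 classes of both libraries. In the first library it did so in 8 of 9 for Fos and Jund, 6 of 9 for Nr4a2 and Nr4a3, 5 of 9 for Atf3 and 4 of 9 for Fosb. In fibroblast-like cells of that library the carried amount of Atf3 was 3.28 CPM, beside a measured 6.87 CPM.

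Read against all genes, the counts at 2-fold were as follows. In cardiomyocyte-like cells 2 of the 10 were at least 2-fold higher (Jun and Jund), beside 4.28% of 13640 genes, and 4 were at least 2-fold lower (Fosb, Egr1, Nr4a1 and Nr4a2), beside 15.8%. In endocardial-like cells none was at least 2-fold higher, beside 6.37% of 12784 genes, and 5 were at least 2-fold lower (Fos, Egr1, Nr4a1, Nr4a2 and Nr4a3), beside 11.1%. In vascular endothelial-like cells 3 were higher (Junb, Jund and Atf3), beside 6.49%, and 1 lower (Egr1), beside 12.0%. In fibroblast-like cells 2 were higher (Junb and Jund), beside 6.41%, and 1 lower (Fosb), beside 11.7%. In macrophage-like cells 1 of 9 measured was higher (Jund), beside 7.23%, and 2 lower (Egr1 and Nr4a3), beside 11.4%. In pericyte-like cells 1 of 7 measured was higher (Junb), beside 5.38%, and none lower, beside 11.7%. The median log2 ratio of the 10 genes was 0.13 in cardiomyocyte-like cells, beside -0.26 over all genes there, and -0.82 in endocardial-like cells, beside -0.11. Genes on both sides of 0 enter these medians.

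**Figure D3:**
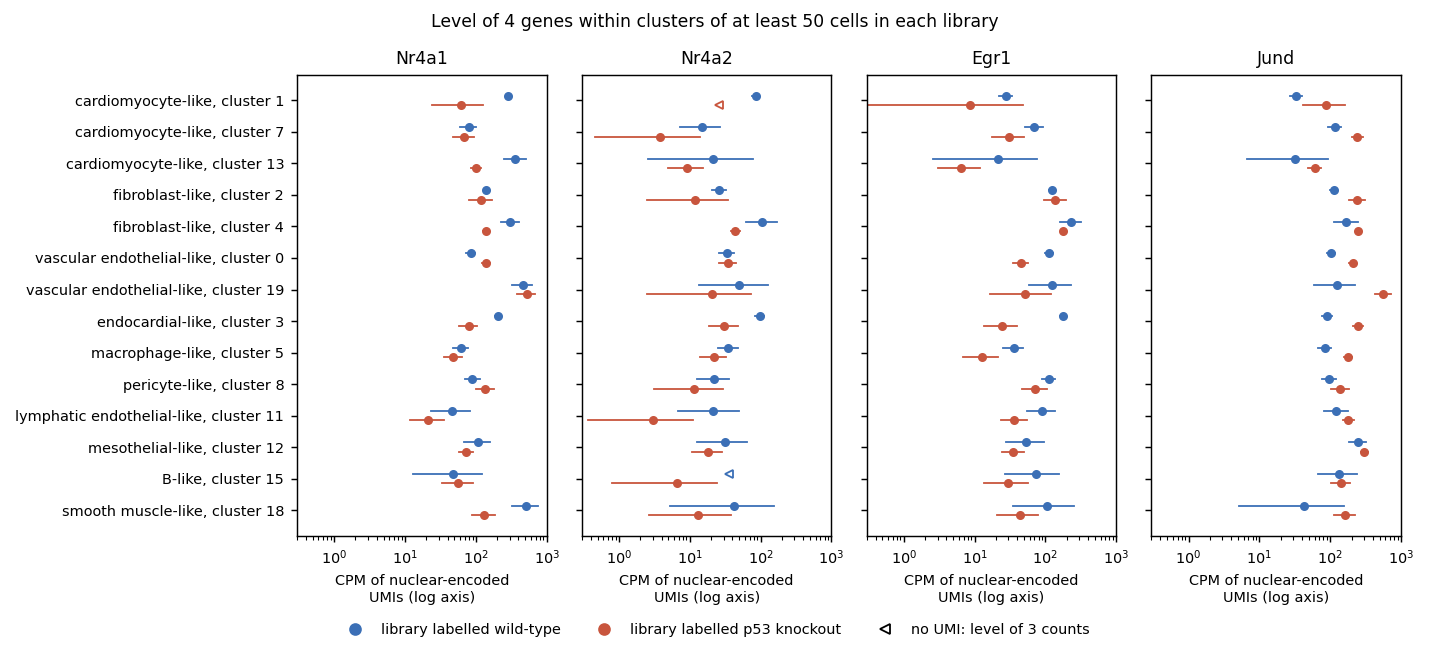
Level of Nr4a1, Nr4a2, Egr1 and Jund in CPM (log axis) within the 14 clusters that held at least 50 cells of each library, with exact 95% Poisson intervals; open triangles mark a library with no UMI at the level of 3 counts. In endocardial-like cluster 3 the library labelled p53 knockout lies left of the other for Nr4a1, Nr4a2 and Egr1 and right of it for Jund.

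Since the libraries filled different clusters of a class, the genes were also read within the 14 clusters with at least 50 cells in both. Endocardial-like cluster 3, with 1652 and 406 cells, had the class's direction for each gene whose interval excluded 0 in the class. Nr4a1 had 206 CPM (186 to 228) and 79.5 CPM (58.8 to 105) there, a log2 ratio of -1.36 (-1.84 to -0.94). Nr4a2 had 96.7 CPM (82.8 to 112) and 30.8 CPM (18.6 to 48.1), a log2 ratio of -1.62 (-2.42 to -0.96), nearer to 0 than in the class, as for Nr4a1. Egr1 had 178 CPM (159 to 198) and 24.3 CPM (13.6 to 40.1), a log2 ratio of -2.82 (-3.72 to -2.13). Jun, whose interval held 0 over the whole class, was higher in this cluster (0.94 (0.62 to 1.25)), as was Jund (1.45 (1.12 to 1.78)). Cluster 6, which held 1306 endocardial-like cells of the library labelled p53 knockout and 15 of the other, had lower Nr4a1 (28.7 CPM (23.3 to 35.0)) and Jun (104 CPM (93.4 to 115)) than cluster 3 of the same library, where Jun had 232 CPM (195 to 273).

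The cardiomyocyte-like clusters differed in mitochondrial RNA and in Nr4a1. In cluster 1, with 3251 and 144 cells, Nr4a1 had 285 CPM (267 to 304) and 61.0 CPM (24.5 to 126), a log2 ratio of -2.13 (-3.54 to -1.18). In cluster 13, with 51 and 398 cells, it had 363 CPM (252 to 508) and 102 CPM (86.7 to 119), a log2 ratio of -1.85 (-2.37 to -1.25). In cluster 7, whose median mitochondrial share was 21.1%, it had 79.3 CPM (60.4 to 102) and 68.6 CPM (48.0 to 94.9), and the interval of the ratio held 0 (-0.20 (-0.85 to 0.41)). Cluster 7 had more Jund and Egr1 than cluster 1 within the first library, with 117 CPM (93.6 to 144) of Jund against 33.4 CPM (27.4 to 40.3), and 69.9 CPM (52.2 to 91.6) of Egr1 against 27.5 CPM (22.1 to 33.8). Without cluster 7 the log2 ratio of Nr4a1 in cardiomyocyte-like cells was -1.63 and that of Jund 1.21. Nr4a2 had no UMI in the 144 cells of cluster 1 of the library labelled p53 knockout, where 3 counts would be 26.1 CPM, beside 85.6 CPM (75.8 to 96.3) in the other library.

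Small clusters held some of the highest levels. Fibroblast-like cluster 4, led by the matrix genes Cilp and Postn, had 116 cells of the library labelled wild-type, with 306 CPM (227 to 405) of Nr4a1, against 138 CPM (126 to 150.1) in the 1782 cells of the other library. Fos had 29 UMIs in those 116 cells, but 18 of them lay in 1 cell, so its level is not compared. Vascular endothelial-like cluster 19, led by Sema3g and Sox17, genes known from arterial endothelium, had 457 CPM (322 to 630.0) and 521 CPM (388 to 685) of Nr4a1, and 124 CPM (59.2 to 227) and 562 CPM (423 to 732) of Jund. Over the 14 clusters the Jund interval lay above 0 in 8 and below 0 in none, Junb in 7 and none, Jun in 4 (clusters 0, 2, 3 and 19) and 1 (cluster 4) of 13 measured, and Egr1 above 0 in none and below 0 in 5 of 10 measured. For Nr4a1 it lay above 0 in 2 (clusters 0 and 8) and below 0 in 5 (clusters 1, 3, 4, 13 and 18). Nr4a2 lay below 0 in 3 of 8 measured and above 0 in none, so its higher level in fibroblast-like cells as a class was not seen within cluster 2 (-0.92 (-3.44 to 0.46)) or cluster 4 (-1.30 (-1.99 to -0.45)).

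The share of cells with a UMI was compared after thinning each cell to 500 UMIs, since the second library was deeper. Every kept cell had at least 500 UMIs, so none was left out. Nr4a1 was detected in 10.2% (9.38% to 11.1%) and 3.50% (2.37% to 4.96%) of cardiomyocyte-like cells (unthinned 21.7% and 14.4%). Nr4a2 was detected in 2.86% (2.41% to 3.38%) and 0.233% (0.0283% to 0.840%) of them (unthinned 6.27% and 1.52%). Jund went the other way, with 1.80% (1.44% to 2.22%) and 5.25% (3.86% to 6.96%) (unthinned 3.97% and 18.0%). Among the 10 classes the highest thinned share of any gene was 18.0% in the first library and 11.7% in the second. In endocardial-like cells Egr1 was detected in 6.36% (5.24% to 7.64%) and 1.29% (0.807% to 1.94%), whereas unthinned shares were 11.4% and 4.03%. Junb and Jund had thinned intervals apart in 5 of 10 classes each, all higher in the library labelled p53 knockout, and Jun in 3. The Junb classes include cardiomyocyte-like cells (1.02% and 2.33%), where no direction was read from its level. Egr1 was apart in 3 and Nr4a1 and Nr4a2 in 2 each, all lower. Fos, Fosb, Atf3 and Nr4a3 were apart in none. No class is known to lack these genes, so a background share could not be set.

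Detection in the same thinned cells was compared for 765 ordered pairs of genes, over 6 classes and both libraries, wherever at least 10 cells held the first gene. In 45 the second gene was found more often with the first than without it, with intervals apart. In none was it found less often. Shares were low and as few as 10 cells held the first gene, so that outcome was out of reach for many pairs. Nothing is read from its absence. Fibroblast-like cells gave 18 of the 45 pairs in the first library and 11 in the second, while macrophage-like and pericyte-like cells gave none in either. The following are 6 of those 45, chosen after their values were seen. In fibroblast-like cells of the library labelled wild-type, Egr1 was found in 21.3% (10.7% to 35.7%) against 5.06% (4.33% to 5.88%) of thinned cells with and without Nr4a2 (10 of 47 cells with it). Nr4a1 was found in 14.6% (9.69% to 20.8%) against 5.76% (4.96% to 6.64%) of those with and without Egr1. In endocardial-like cells of that library Nr4a1 was found in 18.9% (11.9% to 27.6%) against 6.73% (5.53% to 8.08%) of cells with and without Egr1. In fibroblast-like cells of the library labelled p53 knockout, Nr4a1 was found in 25.9% (11.1% to 46.3%) against 4.92% (4.0% to 5.98%) of cells with and without Nr4a2, and Egr1 in 13.6% (8.99% to 19.4%) against 6.24% (5.17% to 7.46%) of cells with and without Junb. In cardiomyocyte-like cells of the library labelled wild-type, Nr4a2 was found in 10.0% (3.76% to 20.5%) against 2.77% (2.32% to 3.28%) of cells with and without Nr4a3. The depth of a cell within its class was not matched beyond the thinning. At least 2 of the 10 genes were found in 3.81% and 7.74% of thinned fibroblast-like cells, 2.01% and 1.52% of cardiomyocyte-like cells and 4.26% and 3.04% of endocardial-like cells. Independent detection at the same single-gene shares would give 2.92% and 6.13%, 1.52% and 1.33%, and 3.33% and 1.80%. The share found was 0.91 times that share in macrophage-like cells of the second library and 0.92 times in pericyte-like cells of the first.

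**Figure D4:**
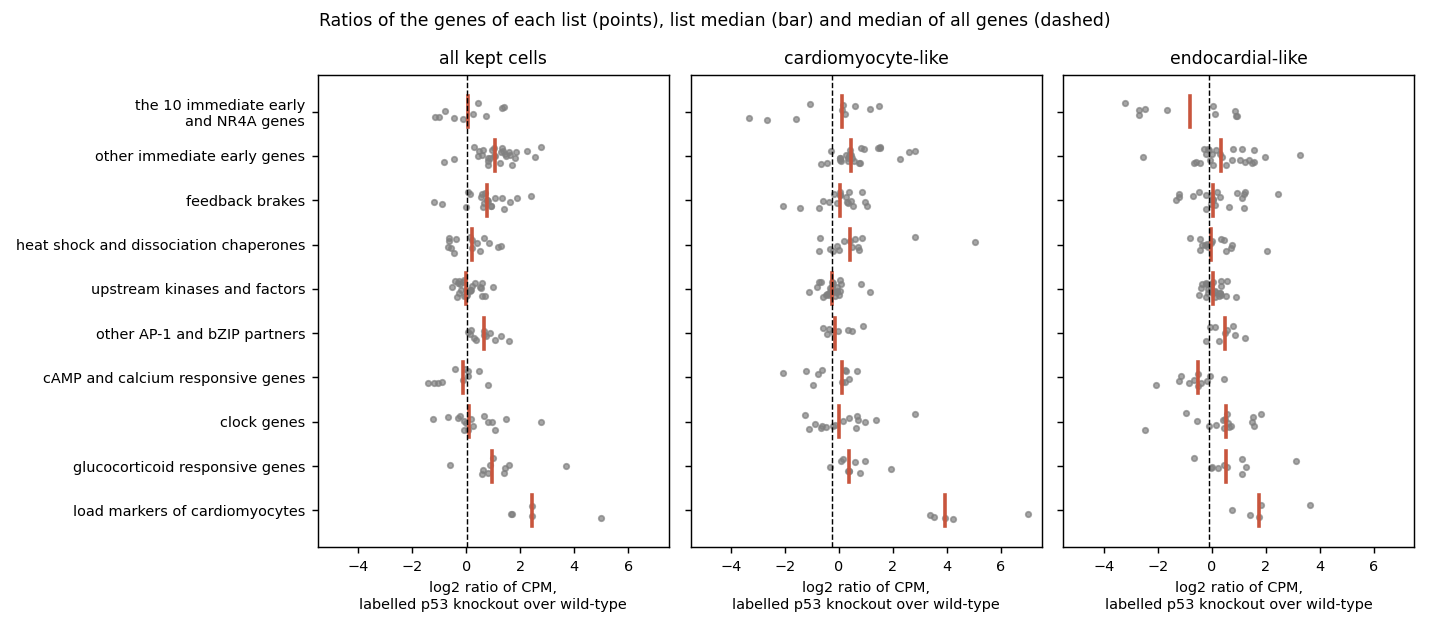
Log2 ratios, second library over first, of the 10 genes and of 9 lists of related genes in 3 panels (all kept cells, cardiomyocyte-like, endocardial-like); points are genes with at least 20 UMIs, bars are list medians and the dashed line is the median of all genes. The other immediate early genes lie mostly right of the dashed line over all kept cells, at a median of 1.05.

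Most of the other immediate early genes had a higher level in the second library. Over all kept cells 27 of 29 measured had a higher level, with a median log2 ratio of 1.05 beside 0.04 over all genes. In cardiomyocyte-like cells 23 of 26 had a higher level, with a median of 0.43 beside -0.26. The medians of the lists that follow are to be read against the same all-gene medians, and against -0.11 in endocardial-like cells. Bhlhe40, a clock-linked repressor, had 15.5 and 109 CPM in cardiomyocyte-like cells, a log2 ratio of 2.81 (2.47 to 3.18). Klf2 and Klf4, flow-responsive factors of endothelium, had 463 and 1047 CPM and 338 and 681 CPM in vascular endothelial-like cells, log2 ratios of 1.18 (1.08 to 1.28) and 1.01 (0.89 to 1.13). In endocardial-like cells both were lower, by log2 ratios of -0.57 (-0.68 to -0.47) and -0.44 (-0.61 to -0.27), and so were Egr1 and the NR4A genes. Rhob, a small GTPase, was higher in both (0.74 and 0.78). Ifrd1 was lower over all kept cells (-0.83 (-0.89 to -0.77)) and Ier5l had 6.68 and 4.03 CPM in cardiomyocyte-like cells, with an interval that held 0.

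Most genes that brake the response also had a higher level. Over all kept cells 18 of 21 had a higher level (median 0.75), and in endocardial-like cells 12 of 21 (median 0.05). Dusp1, a phosphatase that switches off MAP kinases, had 336 and 514 CPM in vascular endothelial-like cells (0.61 (0.49 to 0.74)) and 93.7 and 96.7 CPM in cardiomyocyte-like cells, where its interval held 0. Nfkbia, the inhibitor of NF-kB, had 104 and 219.7 CPM in fibroblast-like cells (1.07 (0.90 to 1.25)). Zfp36l1 and Zfp36l2, which speed the decay of AU-rich RNAs, had log2 ratios of 0.82 (0.75 to 0.89) and 0.75 (0.66 to 0.84) over all kept cells. Btg1, which restrains proliferation, was higher in cardiomyocyte-like cells (1.02 (0.60 to 1.44)). Rgs2, a brake on Gq signalling, was lower: it had 95.2 and 22.4 CPM in cardiomyocyte-like cells, a log2 ratio of -2.08 (-2.54 to -1.67).

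Other bZIP genes, possible partners of AP-1, had higher levels in 12 of 12 over all kept cells (median 0.67) and in 3 of 8 measured in cardiomyocyte-like cells (median -0.14). Fosl2, a further Fos family member, had 43.7 and 142 CPM in vascular endothelial-like cells, a log2 ratio of 1.69 (1.38 to 2.02), and 42.7 and 58.6 CPM in cardiomyocyte-like cells (0.46 (0.14 to 0.77)). Atf2 differed little (139.8 and 146 CPM over all kept cells, 0.07 (-0.02 to 0.15)). Maf was higher in vascular endothelial-like cells (1.66 (1.25 to 2.11)) and Mafg had 78.0 and 96.2 CPM over all kept cells (0.30 (0.20 to 0.41)). In cardiomyocyte-like cells Mafk was higher (0.87 (0.51 to 1.23)) and Jdp2 had 14.5 and 9.40 CPM, with an interval that held 0.

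Of the kinases and factors upstream of the response, 12 of 25 had a higher and 13 a lower level over all kept cells (median -0.02), and none was 2-fold apart. In cardiomyocyte-like cells 5 had a higher and 20 a lower level, and the list's median, -0.26, was that of all genes there (-0.26). Mef2a and Mef2c, factors that carry calcium signals to Nr4a1, and Hdac9, a repressor of MEF2, had log2 ratios of -0.10 (-0.20 to 0.01), -0.26 (-0.40 to -0.13) and -0.39 (-0.52 to -0.27) in cardiomyocyte-like cells. The co-activator gene Crebbp had 265 and 205 CPM (-0.37 (-0.52 to -0.22)). Mapk3, which encodes ERK1, was higher there (1.15 (0.67 to 1.63)) and Hdac5 lower (-1.12 (-1.5 to -0.78)).

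Of 11 genes that respond to cAMP and calcium, 10 had a lower level in endocardial-like cells, with a median of -0.53 beside -0.11 over all genes. At least 2-fold lower were 3 of the 11, beside 11.1% of all genes. Pde4d, a phosphodiesterase that degrades cAMP, had 661 and 365 CPM (-0.85 (-0.97 to -0.74)), and Pde4b 291 and 202 CPM (-0.53 (-0.69 to -0.37)). Rcan1, a calcineurin target, had 44.3 and 28.3 CPM (-0.65 (-1.07 to -0.21)). Per1 was higher (0.45 (0.22 to 0.69)). Ppargc1a, Pde4d and Pde4b were much higher in cardiomyocyte-like cells (808 and 956 CPM, 3892 and 4155 CPM and 1114 and 1286 CPM), so free RNA moves with their lower levels elsewhere, and its part was not tested. In cardiomyocyte-like cells 6 of 11 had a higher level (median 0.09).

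The chaperone genes named with dissociation had a higher level in 9 of 15 over all kept cells (median 0.21), in 9 of 15 in cardiomyocyte-like cells (median 0.41) and in 7 of 15 in endocardial-like cells (median -0.04). Hspa1b, an inducible Hsp70 gene, had 2 and 29 UMIs in cardiomyocyte-like cells, a log2 ratio of 5.02 (3.33 to 8.43); it shares nearly all of its sequence with Hspa1a, so the 2 are uncertain. Dnajb1, its co-chaperone, had 9.95 and 5.82 CPM, with an interval that held 0. Hsp90ab1, Hspa8 and Hspa5 had log2 ratios of 0.48 (0.35 to 0.60), 0.41 (0.28 to 0.53) and 0.59 (0.44 to 0.75) in these cells. Cryab, a small heat shock protein of muscle, had 504 and 817 CPM (0.70 (0.61 to 0.78)).

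Glucocorticoid-responsive genes had a higher level in 9 of 10 over all kept cells (median 0.94). Fkbp5, a co-chaperone of the glucocorticoid receptor, had 71.3 and 323 CPM in vascular endothelial-like cells (2.17 (1.94 to 2.42)) and 59.0 and 74.3 CPM in cardiomyocyte-like cells (0.33 (0.06 to 0.60)). Tsc22d3, which encodes GILZ, was higher in vascular endothelial-like cells (1.13 (0.96 to 1.30)) and Klf9 in fibroblast-like cells (0.65 (0.54 to 0.76)). The metallothionein gene Mt2 had 21.8 and 242 CPM in fibroblast-like cells (3.46 (3.14 to 3.83)). Zbtb16 was the exception, with 435 and 284 CPM (-0.62 (-0.67 to -0.56)).

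Of 16 clock genes, which follow the hour of collection, 9 had a higher and 7 a lower level over all kept cells (median 0.11). In cardiomyocyte-like cells 8 had a higher and 8 a lower level, with 7 intervals above 0 and 7 below. The share of all genes with such intervals was not counted. Bhlhe40, given above, was the highest. In the same cells Per3 (-0.91 (-1.15 to -0.68)), Clock (-0.50 (-0.69 to -0.32)) and Arntl (-1.26 (-1.84 to -0.75)) were lower, Nr1d2 was lower (-0.23 (-0.41 to -0.06)), and Tef had 199 and 219 CPM with an interval that held 0. The hour at which tissue was taken is not given in the sources used here. All 5 load markers were higher in cardiomyocyte-like cells: Nppa, the atrial natriuretic peptide gene, had 44.0 and 5668 CPM (7.01 (6.83 to 7.19)), Nppb 81.5 and 1520.0 CPM, Myh7 188 and 2165 CPM and Ankrd1 305 and 3121 CPM. In cluster 7 of the second library 17% of cells held an atrial gene, and the part of atrial cells in the Nppa level was not tested. Jund was higher in cardiomyocyte-like cells too, while Egr1, Nr4a1 and Nr4a2 were lower. Other classes also had higher load markers and Jund, but not always the same direction for these genes. Endocardial-like cells had lower Egr1, Nr4a1 and Nr4a2. Fibroblast-like cells (load marker median 1.91) had higher Egr1 (0.44) and Nr4a2 (0.50), the latter not in thinned cells. Vascular endothelial-like cells (median 1.12) had lower Egr1 (-1.46) but higher Nr4a1 (0.28). The part of free RNA in load markers outside cardiomyocyte-like cells was not tested.

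Over the 10 classes, the genes whose level followed the median of the 10 genes most closely in both libraries were Nkain3, Dnah7a, Ckb, Gfpt2 and Gm48228, with mean Pearson r of 0.79, 0.77, 0.76, 0.75 and 0.70 among 9803 genes with at least 200 UMIs in each library. The points are 10 classes of the same library and share its depth and free RNA, so r is a description. The 10 genes themselves did not all follow their median. Their mean r ran from 0.03 for Fosb, 0.24 for Jund and 0.35 for Atf3 up to 0.72 for Nr4a3. Between the libraries, r of a gene's levels over the 10 classes was 0.71 for Jund, 0.69 for Jun and 0.65 for Egr1, and 0.02 for Atf3 and 0.20 for Nr4a2.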

How the data were processed

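The deposited files hold raw UMI counts (unique molecular identifiers, whole numbers) for each gene in each barcode of 2 left ventricle libraries. Cell Ranger, Seurat and mm10 are named, without versions, per the submitters' processing notes. A 10x kit is named per the labels' protocols, whereas the deposited barcodes are 3 blocks of 9 bases. Whether whole cells or nuclei were used is not given. The files held 16060 and 10118 barcodes with 18897913 and 20918824 UMIs; 105 barcodes occurred in both libraries (0.654% and 1.04%).

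Cells with at least 200 genes and at most 50% mitochondrial UMIs were kept. Scrublet's automatic threshold marked 1488 and 0 barcodes, so the 8% with the highest scores were removed from each library (1283 and 808), which does not show that they were doublets. Clustering used scanpy 1.11.5 with 2000 variable genes, 30 components, 15 neighbours and Leiden resolution 1 (leidenalg 0.10.2), leaving out the 10 genes, the 9 gene lists, mitochondrial, ribosomal, haemoglobin and sex-linked genes. Clusters were named from 18 marker lists; the naming thresholds (at least 3 markers at 2-fold in at least 5% of cells, a mean log2 of at least 0.5 with 20 CPM added, and leading genes found in at least 25% of cells) were set after the data were seen. At a lower detection limit the main fibroblast-like cluster of the library labelled wild-type stayed unnamed.

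Class sums of UMIs were scaled to CPM over nuclear-encoded genes, with log2 ratios after adding 0.5 UMI. Ratios are read for genes with at least 20 UMIs over both libraries. Intervals are exact: Poisson for levels, Clopper-Pearson for shares, conditional binomial for ratios. Simulated counts were used to check the ratios. The genes and lists were chosen with earlier results of these data known. Of each list, up to 4 genes with most UMIs and those with the highest and lowest ratio in cardiomyocyte-like cells are named; cluster values and gene pairs were picked after their values were seen. GENCODE vM21 matched 32445 identifiers.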

Additional observations from a re-analysis of the deposited data

How the results depend on the processing

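Ratios of the genes in the 5 largest classes and their median and 2-fold count in cardiomyocyte-like cells were recomputed under 14 settings. No paired analysis was possible because each group has 1 library. In cardiomyocyte-like cells the median log2 ratio of the genes lay between -0.11 and 0.61 (0.13 as reported), so its sign is not settled, and the number at least 2-fold apart was 4 to 6 except in the cells of the mitochondria-rich cluster 7 alone, an alternative added after seeing the data, where it was 2 and fewer of the genes had 20 UMIs. Median-of-ratios scaling added 0.16 to every cardiomyocyte-like and 0.11 to every endocardial-like log2 ratio, which put Egr1 in cardiomyocyte-like cells at -0.92. The sign changed for 2 ratios whose interval excluded 0. Nr4a2 in fibroblast-like cells was -0.054 in cells thinned to 500 UMIs, and Fosb in fibroblast-like cells was 0.25 without the 1% of cells with most UMIs of the 10 genes; the cause was not tested. Of 49 ratios, 39 kept their sign in every setting run, including Jund in the 5 classes, Egr1 in the 5 classes, and Nr4a1 and Nr4a2 in cardiomyocyte-like and endocardial-like cells. No setting compared fibroblast-like cells within their clusters, and there Egr1 was not higher beyond counting error in either cluster, as given above. Nr4a1 in cardiomyocyte-like cells ranged from -1.68 to -0.20, the latter in cluster 7 alone. Limiting cells to 500 to 1500 UMIs moved 14 ratios beyond their interval, among them Nr4a1 (-1.21) and Jund (1.99) in cardiomyocyte-like cells. Thinning to 500 UMIs per cell moved 10 ratios beyond their interval. Fosb, Nr4a3 and Atf3 rest on few UMIs in most classes, and had under 20 UMIs in 6, 4 and 4 of 10 classes, where no ratio is read.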
